A study of Mus musculus with 12 samples.

Results

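The comparison is between livers of mice housed at 29 °C and livers of mice housed at 22 °C, over all 55421 genes of the deposited count table, of which 15006 had enough counts to be tested. The 8 libraries compared, of 12 in the series, were made from total RNA depleted of ribosomal RNA. All mice were labelled wild type (WT) and carried an orthotopic tumour of E0771 cells, a mouse mammary carcinoma line, in a mammary fat pad, and livers were taken at day 21. The mice were acclimatised to their temperature for a week in climate chambers and ate freely. Libraries 5 to 8 came from 22 °C, the usual animal room, libraries 9 to 12 from 29 °C, and libraries 1 to 4, from 6 °C, entered the fits without being compared. No tumour-free group was analysed here, so the tumour is shared by both temperatures. Age and sex are not given in the labels, which also do not say that each library is a separate animal, so the p-values here rest on the spread between libraries, which may be technical. The growth protocol in the labels names Balb/C as well as C57Bl6/J mice and assigns no library to a strain.

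A mouse at ordinary room temperature is mildly cold-stressed and eats and burns more fuel to hold its body temperature, while close to 29 °C, near thermoneutrality, that extra heat production is not needed. The liver takes part by supplying glucose, lipid, bile acids and activated thyroid hormone, and by secreting the hormone FGF21. Genes of these functions, of drug and steroid handling, and of the blood and immune cells that liver tissue holds were followed in 63 gene lists.

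Levels below are CPM, the count scaled to a common library size after TMM scaling, and the 4 values of a temperature are always given in the order of the libraries, 5 to 8 at 22 °C and 9 to 12 at 29 °C. CPM does not correct for gene length, so levels are compared between libraries and not between genes. A gene was called when its adjusted p, by edgeR's quasi-likelihood test with Benjamini-Hochberg adjustment over all 15006 genes, was under 0.05, and "rose" or "fell" is used of called genes alone. Fold changes are log2 values of 29 °C against 22 °C with the standard error (SE) implied by the test. In bulk tissue, fewer cells of a type and less RNA per cell cannot be told apart.

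The libraries differed in ways the temperatures do not account for, and these came before any temperature result. H2-Ea-ps, a class II MHC gene listed as a pseudogene and known to be transcribed in some mouse strains and not in others, stood at 0, 0, 15.8 and 14.3 CPM at 22 °C and 10.3, 0, 0 and 0 CPM at 29 °C. Libraries 7, 8 and 9 therefore held it, and a count of 0 in the other 5 allows at most 0.158 to 0.293 CPM (3 counts, counting error only). The term in the fit marks these libraries. It splits the comparison into libraries 5 and 6 against 10, 11 and 12 (without H2-Ea-ps) and libraries 7 and 8 against 9 alone (with it). Mitochondrial ribosomal RNA came to 7736, 6616 and 8429 CPM in libraries 7, 8 and 9, against 668 to 3423 CPM in the other 5. On the first principal component of log2 CPM (39% of the variance), these libraries lay at -63.75, -54.94 and -73.95, and the other 5 between 7.19 and 44.61. What else the term marks was not tested. Libraries 5 and 6 stood apart a second time: the RNA Gm26917 took 0.667% and 0.605% of their counts against 5.02% to 8.7% in the other 6, and mitochondrially encoded mRNAs came to 39400 and 47000 CPM against 10300 to 21700. Total counts ran from 10245706 to 19001126 over the 8 libraries. The labelled tissue was checked by 12 hepatocyte genes, which summed to between 131000 and 213000 CPM in all 8 libraries.

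With the term, 516 of 15006 genes were called, which is 3.44% of the genes tested. Of these, 234 (1.56%) were higher and 282 (1.88%) lower at 29 °C. The changes were moderate, with a median absolute log2 fold change of 0.806 over the called genes, and 159 of them had an absolute value of at least 1 (92 higher, 67 lower). Protein-coding genes made up 471 of the calls and long non-coding RNAs 28, of which 24 were lower. Some genes of glycolysis, lipid droplets, DNA replication and actin rose, and some of drug metabolism, bile acids, amino acid breakdown and thyroid hormone activation fell, as described by group below. The median over all genes tested was 0.01. With 3.44% called over all genes, a single call in a list below is no result about that list.

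**Figure D1:**
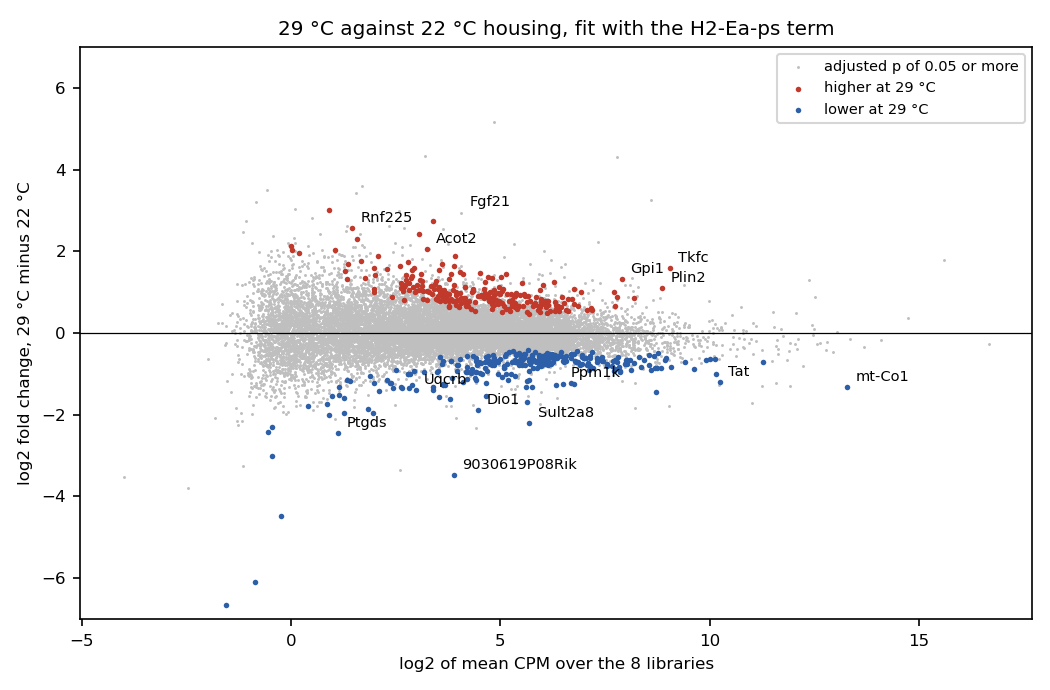
Mean level of each of the 15006 tested genes (x axis, log2 of its mean CPM over the 8 libraries compared) against its log2 fold change at 29 °C against 22 °C (y axis). Coloured points are the 234 genes called higher and the 282 called lower in the fit with the term for H2-Ea-ps libraries. Fgf21, labelled, lies among the uncalled genes with a log2 fold change of 2.95.

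These calls depended on the term and on which libraries were present. Without the term edgeR called 0 genes (0% of 15006), with 2241 at an unadjusted p under 0.05, against 3648 such genes with the term. DESeq2 called 325 and limma voom, run here with a quality weight for each library, 43 without the term, and 1612 and 2292 with it. Leaving out library 5 left 2 calls, leaving out library 6 left 0, and leaving out library 10 left 1. Without library 11 there were 100 calls and without library 12 there were 52. When both libraries 5 and 6 were left out, Cyp2b10 alone was called. Leaving out library 7, 8 or 9 gave 846, 595 and 946 calls. The direction of the 516 genes moved less than the number of calls. All 516 had the same sign in edgeR without the term. All 516 also had it when libraries 5 and 6 were left out and the term was kept. The medians then went from 0.91 to 0.59 for the 234 higher genes and from -0.74 to -0.53 for the 282 lower genes. With those libraries and the term both left out, 456 of the 516 kept their sign, and class and temperature then cannot be told apart. In limma voom without the term 514 kept it. Gpi1 had a log2 fold change of 1.32 with the term and 1.46 without, Dio1 -1.89 and -1.81, and Ppm1k -1.24 and -1.31. Other genes moved further, among them Cyp2b10 with -1.17 and -0.76, Rflnb with 1.70 and 0.77, and Mcm5 with 0.96 and 0.48. These libraries also served to choose the 516, so the signs and sizes are a description. For some genes the values within the libraries without and with H2-Ea-ps are given. The value within the libraries with H2-Ea-ps rests on 1 library at 29 °C.

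**Figure D2:**
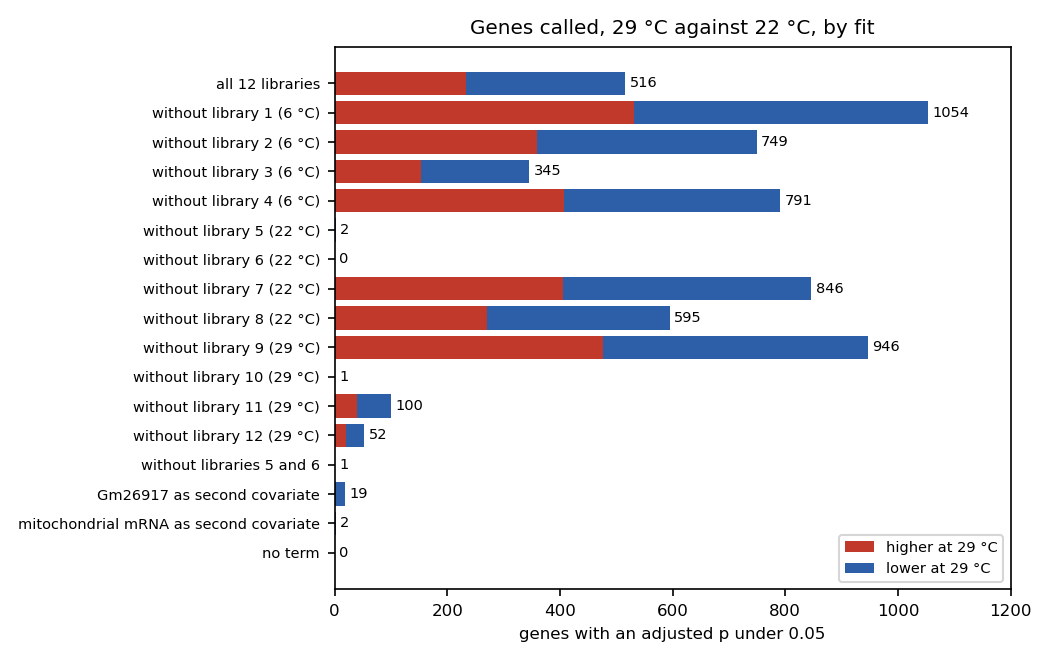
Number of genes with an adjusted p under 0.05 (x axis) in each of 17 edgeR fits (y axis), split into genes higher and lower at 29 °C. The bar of all 12 libraries stands at 516, and the bars without library 5, 6 or 10 stand at 2, 0 and 1. Those without library 11 or 12 stand at 100 and 52.

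Cyp2b10, a drug-metabolising cytochrome P450 known as the standard target of the receptor CAR and located at chr7:25897620-25926624 (GRCm38, + strand), had the lowest p of all tested genes. It stood at 80.3, 107, 33.1 and 31.5 CPM at 22 °C and 12.2, 39.6, 52 and 44.3 CPM at 29 °C (log2 fold change -1.17 with an SE of 0.13, adjusted p = 0.00378). Over all 8 libraries the temperatures overlapped, because libraries with H2-Ea-ps were lower at either temperature. Within each class they did not: libraries 5 and 6 lay above 10, 11 and 12, and 7 and 8 above 9, with log2 fold changes of -1.05 among the libraries without H2-Ea-ps and -1.40 among those with it. Such a separation within both classes in the same direction was found in 3758 of all genes tested (25%), and in 489 of the 516 called genes. Its fall was called in 7 of the 8 fits that leave out 1 library of the comparison, more than for any other gene. Without libraries 5 and 6 the fold change was -1.35 (adjusted p = 0.0466). In edgeR without the term it was -0.76 (adjusted p = 0.537).

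The next gene by this measure, Gm13775, was called in 6 of those 8 fits, but its level was near the limit of counting. It stood at 1.38, 2.95, 0 and 0 CPM at 22 °C and 0, 0.0569, 0 and 0 CPM at 29 °C, so it was at 0 in all 3 libraries with H2-Ea-ps and its call rests on libraries 5 and 6 alone. A further 35 genes were called in 5 of the 8 fits and none of the 516 in all 8.

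The 6 falls least dependent on a single library, by their highest adjusted p over these fits, were these 2 and 4 others. Ppm1k, the mitochondrial phosphatase that activates branched-chain ketoacid dehydrogenase and so the breakdown of branched-chain amino acids, stood at 135, 115, 105 and 158 CPM at 22 °C and 66.8, 41.2, 45.5 and 53.9 CPM at 29 °C (log2 fold change -1.24 with an SE of 0.18, adjusted p = 0.0182). Every 29 °C library lay below every 22 °C library. The transcript 9030619P08Rik, annotated as a pseudogene, stood at 20.9, 45.1, 15.5 and 27.7 CPM at 22 °C and 5.02, 1.88, 1.86 and 1.22 CPM at 29 °C (log2 fold change -3.47 with an SE of 0.49, adjusted p = 0.0182), also without overlap. As a pseudogene it may share reads with related genes, so its own level is uncertain. Sned1, an extracellular matrix protein, did not overlap either (45.3 ± 9.62 CPM at 22 °C and 21 ± 4.91 CPM at 29 °C (SD, n = 4), log2 fold change -1.08 (SE 0.18)). Zfp385b, a zinc finger protein, had a fold change of -1.11 (SE 0.18) with library 7 inside the 29 °C range. Without libraries 5 and 6 these 4 genes kept fold changes of -0.96, -2.67, -0.98 and -0.83, none of them called.

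The 6 rises least dependent on a single library were Gpi1, Tkfc, Aacs, Iffo2, Ppan and Rnf225. In each of them all 29 °C libraries lay above all 22 °C libraries, a separation that 1152 of all tested genes showed (7.68%), 583 in this direction (3.89%) and 569 in the other (3.79%). Of the 516 called genes 246 separated the temperatures over all 8 libraries. The separation of a called gene is therefore no support apart from its call. Several are enzymes of sugar and ketone use and are described with their groups. Iffo2, an intermediate filament family member, had a mean of 20.2 ± 2.52 CPM at 22 °C and 37.4 ± 4.5 CPM at 29 °C (SD, n = 4), with a log2 fold change of 0.92 (SE 0.15). Ppan, a factor of ribosome assembly, stood at 9.04, 7.94, 10.5 and 9.26 CPM at 22 °C and 19.8, 17.7, 13.2 and 17.2 CPM at 29 °C (log2 fold change 0.98 with an SE of 0.18, adjusted p = 0.0217), with nearly equal values of 0.91 among the libraries without H2-Ea-ps and 1.01 among those with it. Rnf225, a ring finger protein, stood at 0.831, 0.407, 0.894 and 0.672 CPM at 22 °C and 2.7, 8.3, 3.07 and 5.22 CPM at 29 °C (log2 fold change 2.56 with an SE of 0.42, adjusted p = 0.0182).

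**Figure D3:**
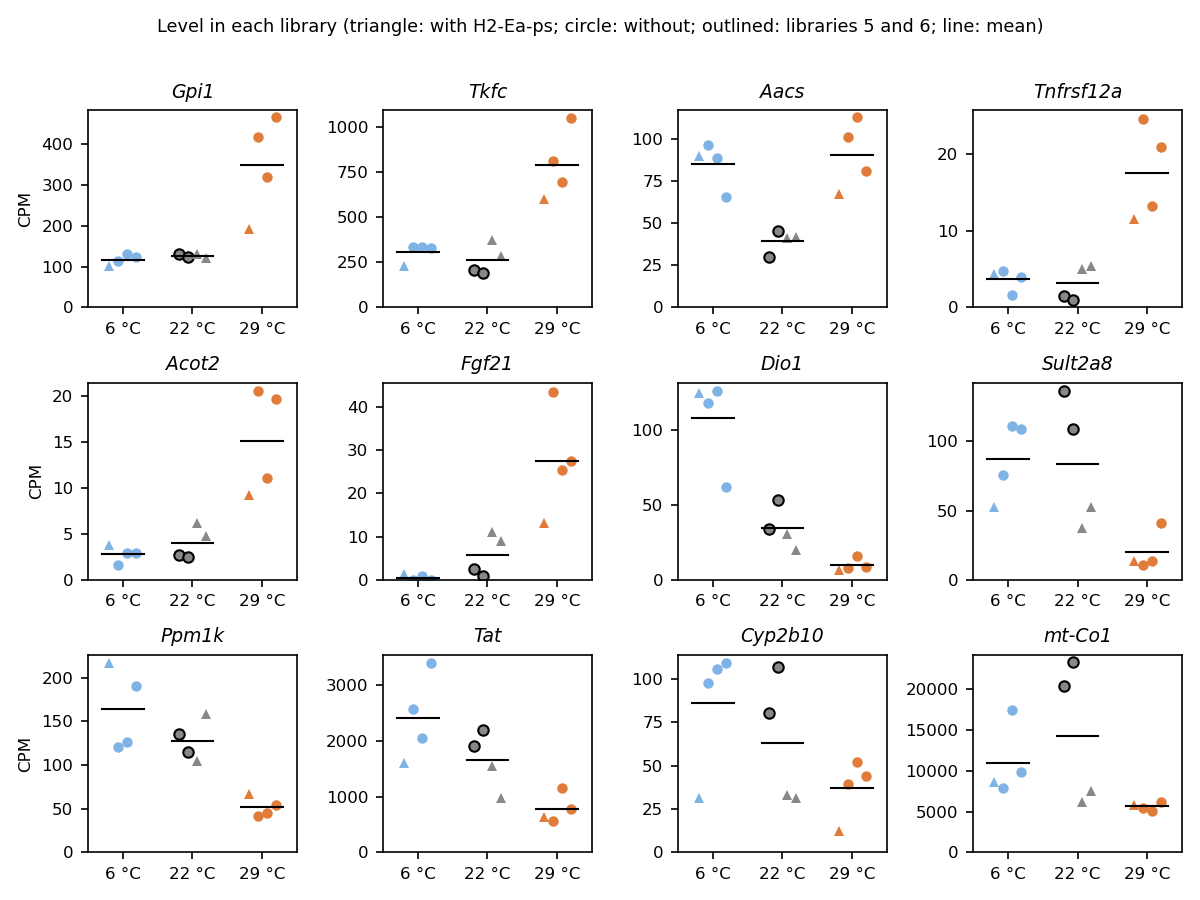
Level in each library (y axis, CPM, from 0) of 11 genes that rose or fell and of Fgf21, by temperature, with the group mean as a line, triangles for libraries with H2-Ea-ps, circles for those without and outlines on libraries 5 and 6. Dio1 and Ppm1k are lower in every 29 °C library than in any 22 °C library, and Gpi1 and Tkfc are higher.

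Sugar use. Of 24 measured glycolysis genes 4 rose and none fell, and the median of the list was 0.70 (0.79 without and 0.53 with H2-Ea-ps). Gpi1, glucose-6-phosphate isomerase (chr7:34201330-34230336, GRCm38, - strand), was the clearest, at 132, 123, 130 and 120 CPM at 22 °C and 193, 418, 320 and 466 CPM at 29 °C (log2 fold change 1.32 with an SE of 0.19, adjusted p = 0.0181). The 22 °C libraries lay between 120 and 132 CPM whatever their class, and all 4 libraries at 29 °C were above them. The fold change of Gpi1 was 1.65 among the libraries without H2-Ea-ps and 0.63 among those with it. Aldoa, the muscle-type aldolase, stood at 68.1, 63.7, 109 and 91.2 CPM at 22 °C and 150, 192, 126 and 174 CPM at 29 °C (log2 fold change 0.997 with an SE of 0.18, adjusted p = 0.0216), again without overlap. Eno1, enolase, had a fold change of 1.05 (SE 0.17) but overlapped between temperatures, since libraries 7 and 8 stood at 20.2 and 19 CPM and libraries 5 and 6 at 41.2 and 47.9 CPM, above library 9 at 33.7 CPM. Hk1, a hexokinase not typical of hepatocytes, had a fold change of 0.73 (SE 0.18) with adjusted p = 0.0409. The summed list lay at 3300 to 3960 CPM at 22 °C and at 4920 to 6420 CPM at 29 °C.

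A few called enzymes and a transporter of other sugar pathways belong to no list for these pathways and stand here as single genes, with no statement on a pathway. Tkfc, triokinase, which phosphorylates the glyceraldehyde released from fructose, stood at 209, 188, 373 and 285 CPM at 22 °C and 603, 808, 696 and 1050 CPM at 29 °C (log2 fold change 1.58 with an SE of 0.25, adjusted p = 0.0182). Its lowest 29 °C library was above its highest 22 °C library, and the values were 2.10 among the libraries without H2-Ea-ps and 0.87 among those with it. Slc2a5, the fructose transporter GLUT5, was low throughout, at 0.738, 0.407, 1.53 and 2.46 CPM at 22 °C and 3.16, 2.39, 8.96 and 4.27 CPM at 29 °C (log2 fold change 2.31 with an SE of 0.55, adjusted p = 0.0403). Here library 10 lay just below library 8, so the temperatures overlapped. Pgd, 6-phosphogluconate dehydrogenase, rose (64.9 ± 18.5 CPM at 22 °C and 112 ± 10.2 CPM at 29 °C (SD, n = 4), log2 fold change 0.88 (SE 0.17)), as did Rpia, ribose-5-phosphate isomerase, by 0.99 (SE 0.23), named after its values were seen. Of 16 genes of gluconeogenesis and glycogen edgeR called 0 (4 at an unadjusted p under 0.05, 2 by DESeq2 and 2 by limma voom), with a median of 0.08.

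Fat use and storage. Aacs, acetoacetyl-CoA synthetase, which turns ketone bodies into lipid precursors, stood at 29.7, 45.6, 41.4 and 41.9 CPM at 22 °C and 67.5, 101, 113 and 81 CPM at 29 °C (log2 fold change 1.17 with an SE of 0.19, adjusted p = 0.0182), without overlap. Of 21 lipid droplet genes 2 rose and none fell (median 0.40). Plin2, a coat protein of lipid droplets, stood at 300, 185, 279 and 343 CPM at 22 °C and 399, 690, 570 and 963 CPM at 29 °C (log2 fold change 1.10 with an SE of 0.27, adjusted p = 0.0454). Cidec, which enlarges lipid droplets, was low at 22 °C: it stood at 0, 0.204, 1.21 and 0.373 CPM at 22 °C and 3.78, 3.47, 4.03 and 2.03 CPM at 29 °C (log2 fold change 3.01 with an SE of 0.67, adjusted p = 0.0346). Both separated the temperatures completely, but within the libraries with H2-Ea-ps the rise of Plin2 was 0.36 against 1.61 in the others. For Cidec these values were 2.22 and 4.90. The list median was 0.64 among libraries without H2-Ea-ps and 0.04 among those with it, a difference between classes that was not tested for lists.

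Of 44 genes of fatty acid oxidation and PPARA targets 3 rose and none fell (median 0.32, with 0.53 and -0.12 in the libraries without and with H2-Ea-ps). Acot2, a mitochondrial acyl-CoA thioesterase induced by fasting, stood at 2.68, 2.44, 6.19 and 4.78 CPM at 22 °C and 9.26, 20.5, 11.1 and 19.7 CPM at 29 °C (log2 fold change 2.05 with an SE of 0.37, adjusted p = 0.0216). All 29 °C libraries lay above the 22 °C libraries, with fold changes of 2.73 among the libraries without H2-Ea-ps and 0.75 among those with it. Crat, carnitine acetyltransferase, rose by 0.77 (SE 0.17) and Ucp2, a mitochondrial carrier, by 0.71 (SE 0.17), and both were also separate. Angptl8, a feeding-induced regulator of lipoprotein lipase, named after its values were seen, stood at 77, 44.7, 22.9 and 35.6 CPM at 22 °C and 105, 400, 114 and 494 CPM at 29 °C. It missed the threshold (log2 fold change 2.24 with an SE of 0.53, adjusted p = 0.0532) although no library overlapped. Of 20 genes of fatty acid synthesis edgeR called 0 (7 at an unadjusted p under 0.05, 2 by DESeq2 and 2 by limma voom), and of 24 genes of the TCA cycle also 0 (6, 1 and 2). Sc5d, at -0.85 (SE 0.21), was the one call among 25 genes of cholesterol synthesis and uptake.

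Fgf21, the liver hormone of fasting, protein shortage and cellular stress, stood at 2.49, 0.917, 11.1 and 8.96 CPM at 22 °C and 13.1, 43.5, 25.4 and 27.6 CPM at 29 °C. All 29 °C libraries were above all 22 °C libraries, yet the spread was wide and the gene was not called (log2 fold change 2.95 with an SE of 0.85, adjusted p = 0.0811). It was called in 4 of 28 fits with other settings or fewer libraries. The fold change was 4.21 among the libraries without H2-Ea-ps and 0.38 among those with it, and the test of that difference gave an adjusted p of 0.19. In the list of 26 genes drawn up for FGF21 and the feeding or fasting hormones 1 rose, Fgfr3 (0.77 (SE 0.19)), and 1 fell, Mmd (-0.81 (SE 0.19)). Neither of them encodes such a hormone.

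Thyroid hormone. Dio1, type 1 deiodinase, the liver enzyme that activates thyroid hormone and itself a known thyroid hormone target, lies at chr4:107291465-107307169 (GRCm38, - strand). It stood at 34.1, 53.7, 30.4 and 20.2 CPM at 22 °C and 6.64, 7.9, 15.9 and 8.61 CPM at 29 °C (log2 fold change -1.89 with an SE of 0.35, adjusted p = 0.0285). Every 29 °C library lay below every 22 °C library, and the fall was -2.01 among the libraries without H2-Ea-ps and -1.93 among those with it. In the 6 °C libraries it stood at 125, 118, 126 and 61.8 CPM, above all 8 libraries of the comparison. Without libraries 5 and 6 the fold change was -1.45 (adjusted p = 0.944). Of 18 measured genes of the thyroid hormone axis 3 fell and none rose (median -0.13). The other two were Slc16a10, a transporter of aromatic amino acids and thyroid hormones (-0.81 (SE 0.20)), and Thrb, the main thyroid hormone receptor of liver (-0.54 (SE 0.13)). In both, libraries 7 and 8 lay within the range of the 29 °C libraries. Thrsp, a lipogenic gene that thyroid hormone induces, had a log2 fold change of 0.93 and was not called (adjusted p = 0.135).

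Drug and steroid handling. Of 42 measured cytochrome P450 genes of families 1 to 3, 6 fell and none rose, and 35 had a negative fold change (median -0.63). The median was -0.67 among libraries without H2-Ea-ps and -0.55 among those with it. Beside Cyp2b10 these were Cyp2c38 (218, 165, 85.5 and 92.6 CPM at 22 °C and 48.5, 61.1, 76.4 and 70.6 CPM at 29 °C, log2 fold change -1.22 with an SE of 0.24, adjusted p = 0.0292), Cyp2c70, which makes the muricholic acids of mice (-0.84 (SE 0.16)), Cyp1a2 (-0.82 (SE 0.19)), Cyp2c68 (-0.79 (SE 0.20)) and Cyp2j5 (-0.56 (SE 0.14)). Cyp2c38 and Cyp2c70 separated the temperatures. Members of the Cyp2c cluster are close copies, so reads may be split between them. Cyp3a11, a further drug-metabolising P450, was not called (log2 fold change -0.24, adjusted p = 0.58).

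Of 42 conjugation enzymes 7 fell and none rose, with a negative fold change in 39 (median -0.49, with -0.49 and -0.39 in the libraries without and with H2-Ea-ps). Sult2a8, a bile acid sulfotransferase, was among the 12 largest falls that the naming rule gave. It stood at 136, 109, 37.5 and 52.2 CPM at 22 °C and 13.7, 10.7, 13.8 and 41.2 CPM at 29 °C (log2 fold change -2.21 with an SE of 0.40, adjusted p = 0.0292). Library 12 lay apart from the other 29 °C libraries and above library 7, so the temperatures overlapped. Sult2a2, a related hydroxysteroid sulfotransferase, had a fold change of -1.32 (SE 0.30), and the Sult2a genes are also close copies. Ugt2b1, a glucuronosyltransferase, stood at 80.2, 86.8, 75.3 and 96.5 CPM at 22 °C and 57.6, 44.7, 51.9 and 41.6 CPM at 29 °C (log2 fold change -0.76 with an SE of 0.14, adjusted p = 0.0212), without overlap. Ugt2b37 was near the counting limit, at 2.21, 3.77, 0.383 and 0.0747 CPM at 22 °C and 0.0772, 0, 0.151 and 0.0678 CPM at 29 °C, and no fold is given for it. Gstm6, Gsta4 and Tpmt completed the calls, with fold changes of -0.79 (SE 0.16), -0.93 (SE 0.22) and -0.76 (SE 0.19). Ces3b, a liver carboxylesterase in none of the lists, stood at 96.2, 104, 25.2 and 60.6 CPM at 22 °C and 11.6, 21.4, 32.6 and 46.2 CPM at 29 °C (log2 fold change -1.69 with an SE of 0.34, adjusted p = 0.0346), where library 7 lay within the 29 °C range.

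To show the promoters of genes with large changes in either direction, the 250 bases before the start site are given for a fall in thyroid hormone activation, a fall in conjugation and a pair of rises, from RefSeq (GRCm38.p6), 5′ to 3′ on the gene's strand, with capitals marking the letters of a searched motif. The Dio1 window is chr4:107307169-107307418 (- strand), the Sult2a8 window, at the more internal of its pair of listed starts, chr7:14438552-14438801 (- strand), the Acot2 window chr12:83987611-83987860 (+ strand) and the Tnfrsf12a window chr17:23677450-23677699 (- strand).
Dio1: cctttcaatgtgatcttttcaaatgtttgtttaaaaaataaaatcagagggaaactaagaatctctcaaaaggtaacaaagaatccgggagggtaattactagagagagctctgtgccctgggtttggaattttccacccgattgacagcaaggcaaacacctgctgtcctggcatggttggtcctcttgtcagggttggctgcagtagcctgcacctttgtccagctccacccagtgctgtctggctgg
Sult2a8: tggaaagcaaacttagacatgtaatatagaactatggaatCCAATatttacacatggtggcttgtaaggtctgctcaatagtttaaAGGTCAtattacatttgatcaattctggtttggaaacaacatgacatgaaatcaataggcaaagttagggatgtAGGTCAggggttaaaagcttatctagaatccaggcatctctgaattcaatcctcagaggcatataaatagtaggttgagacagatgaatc
Acot2: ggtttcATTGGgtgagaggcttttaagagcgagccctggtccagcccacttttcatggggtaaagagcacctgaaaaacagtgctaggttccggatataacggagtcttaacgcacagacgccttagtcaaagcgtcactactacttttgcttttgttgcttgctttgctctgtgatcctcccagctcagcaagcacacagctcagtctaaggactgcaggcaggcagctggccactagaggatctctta
Tnfrsf12a: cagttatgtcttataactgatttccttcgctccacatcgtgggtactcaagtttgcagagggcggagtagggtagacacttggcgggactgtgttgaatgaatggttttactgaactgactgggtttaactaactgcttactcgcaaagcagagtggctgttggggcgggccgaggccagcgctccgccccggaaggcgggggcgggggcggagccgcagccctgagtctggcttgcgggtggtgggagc
The Sult2a8 window holds AGGTCA, the nuclear receptor half-site, in 2 places and 1 CCAAT box, and the Acot2 window 1 CCAAT box, read on the other strand. The window of the other listed Sult2a8 start, chr7:14446588-14446837 (- strand), holds none of the 8 motifs. None of the 8 searched motifs is in the Dio1 or Tnfrsf12a windows, which says only that these letters are not in this window.

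The motifs were searched on both strands in the promoters of the 24 genes with the largest rises and falls that the naming rule gave, of which 7 rises (7 promoters) and 8 falls (9 promoters) were matched by symbol. AGGTCA was in 1 of the 7 and 2 of the 9 promoters, against 14% of all 32851 promoters of the table. CCAAT was in 3 and 5, against 33.8%. CACGTG, the E-box, was in that of Slc41a3 and TGANTCA, the AP-1 motif, in that of Ptgds, against 6.02% and 6.75% of all. TGACGTCA (1.55% of all), TGATGNAAT (0.816%), the heat shock motif (0.466%) and the PPAR direct repeat (0.0335%), which contains the half-site in duplicate, were in none of the 16. These matches are a description of letters and no test was made.

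Bile acids. Of 22 genes of bile acid synthesis and transport 3 fell and none rose, and 20 had a negative fold change (median -0.56, with -0.47 and -0.54 in the libraries without and with H2-Ea-ps). Abcb11, the bile salt export pump, stood at 899, 1050, 556 and 751 CPM at 22 °C and 375, 603, 598 and 640 CPM at 29 °C (log2 fold change -0.72 with an SE of 0.14, adjusted p = 0.0239). Libraries 5, 6 and 8 lay above all 29 °C libraries, and library 7 did not. Akr1d1 and Cyp27a1, enzymes of bile acid synthesis, had fold changes of -0.78 (SE 0.18) and -0.59 (SE 0.15), and both overlapped between temperatures. Cyp7a1, the rate-limiting enzyme, stood at 38, 215, 24.9 and 15.8 CPM at 22 °C and 57.3, 18.1, 18.8 and 18.4 CPM at 29 °C and was not called (adjusted p = 0.385). It was high in library 6 alone, and in the class with H2-Ea-ps library 9 exceeded libraries 7 and 8.

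Amino acids. Of 51 genes of amino acid catabolism, urea cycle included, 8 fell and none rose (median -0.22). Tat, tyrosine aminotransferase, which glucocorticoids induce, stood at 1900, 2190, 1550 and 977 CPM at 22 °C and 625, 562, 1160 and 774 CPM at 29 °C (log2 fold change -1.20 with an SE of 0.23, adjusted p = 0.0239). The 29 °C libraries were lower except that library 11 exceeded library 8. Hpd and Hgd, which like Tat act in tyrosine breakdown, had fold changes of -0.66 (SE 0.16) and -0.82 (SE 0.15). Kynu, kynureninase of tryptophan breakdown, stood at 217, 236, 149 and 144 CPM at 22 °C and 99.9, 85.8, 119 and 132 CPM at 29 °C (log2 fold change -0.86 with an SE of 0.15, adjusted p = 0.0212), without overlap. Prodh, proline dehydrogenase, stood at 120, 116, 105 and 111 CPM at 22 °C and 60.1, 74, 69.1 and 97 CPM at 29 °C (log2 fold change -0.64 with an SE of 0.14, adjusted p = 0.0301) and was lower in all 4 libraries at 29 °C. Its fold change was -0.56 among the libraries without H2-Ea-ps and -0.85 among those with it, where library 9 stands alone at 29 °C, and the test of that difference gave an adjusted p of 0.689. Aass of lysine breakdown (-0.76 (SE 0.17)) and Otc of the urea cycle (-0.67 (SE 0.15)) overlapped between temperatures.

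Mitochondria. The mitochondrially encoded mRNAs had the lowest median of all 63 lists, -1.30 over 7 members that could be tested, all negative, of which 2 fell. mt-Co1, a subunit of cytochrome oxidase encoded by the mitochondrial genome, stood at 20400, 23300, 6130 and 7480 CPM at 22 °C and 5850, 5440, 5110 and 6220 CPM at 29 °C (log2 fold change -1.33 with an SE of 0.32, adjusted p = 0.0443). The difference lay in libraries 5 and 6, since libraries 7 and 8 were close to the 29 °C libraries, and the list medians were -2.02 without and -0.05 with H2-Ea-ps. mt-Nd6 stood at 277, 367, 374 and 447 CPM at 22 °C and 371, 152, 121 and 106 CPM at 29 °C (log2 fold change -0.90 with an SE of 0.23, adjusted p = 0.045), and is encoded on the other strand of that genome. Without libraries 5 and 6 these fold changes were -0.41 and -0.36.

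Of 75 nuclear genes of the respiratory chain 4 fell and none rose, with a median of -0.10. Uqcrb, a complex III subunit, stood at 15.8, 18.3, 5.62 and 5.75 CPM at 22 °C and 4.32, 5.17, 3.62 and 4.47 CPM at 29 °C (log2 fold change -1.40 with an SE of 0.30, adjusted p = 0.0317). Although no library overlapped, the fold change was -1.95 among the libraries without H2-Ea-ps and -0.39 among those with it. Cox6c (-0.99 (SE 0.25)), Ndufa6 (-0.54 (SE 0.12)) and Atp5h (-0.72 (SE 0.19)) were the others, with Cox20, a cytochrome oxidase assembly factor, at -1.32 (SE 0.32). Of 76 mitochondrial ribosomal proteins 3 fell, Mrpl34 (-1.13 (SE 0.22)), Mrps21 (-0.92 (SE 0.21)) and Mrpl22 (-0.995 (SE 0.26)), a share near the 3.44% called over all genes, with a list median of -0.05. The called mRNAs of both lists were highest in libraries 5 and 6 among the 8, the libraries with the least Gm26917. The part of that in their fall was not tested beyond the fit in which Gm26917 was a second covariate, which left 19 calls over all genes, and the fit with mitochondrial mRNA, which left 2. With Gm26917 as a second covariate the fold changes were -0.42 for Uqcrb, -0.17 for Cox6c, -0.57 for Ndufa6, -0.58 for Mrpl34, -0.63 for Mrps21 and -0.24 for Mrpl22, none of them called.

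Cytosolic ribosomal proteins rose in 6 of 72 measured members and fell in 1 (median 0.39). Rps19 stood at 4.98, 4.99, 16.9 and 17.8 CPM at 22 °C and 22, 21.5, 24.5 and 26 CPM at 29 °C (log2 fold change 1.44 with an SE of 0.31, adjusted p = 0.0346), without overlap. Its fold change was 2.26 among the libraries without H2-Ea-ps and 0.35 among those with it. Rpl3 stood at 6, 7.74, 5.68 and 7.76 CPM at 22 °C and 9.11, 31.8, 23 and 39.2 CPM at 29 °C (log2 fold change 1.49 with an SE of 0.35, adjusted p = 0.0409), also without overlap. Rpl10a (1.17 (SE 0.23)), Rpl7a (1.08 (SE 0.27)), Rpl8 (0.66 (SE 0.17)) and Rps3 (0.56 (SE 0.14)) were the others that rose. Rps2, the one that fell (-0.72 (SE 0.16)), stood at 118, 114, 1.47 and 1.72 CPM at 22 °C and 1.7, 60.8, 53.9 and 70.6 CPM at 29 °C. Its level differed far more between the library classes than between temperatures. Ribosomal protein genes have many processed pseudogenes that can take their reads, so these levels are uncertain.

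Proliferation and histones. Of 33 genes of proliferation and DNA replication 6 rose and none fell (median 0.62, with 0.73 and 0.58 in the libraries without and with H2-Ea-ps). Rrm2, a ribonucleotide reductase subunit, stood at 4.06, 4.07, 16.7 and 13.4 CPM at 22 °C and 29.2, 14, 18.7 and 12.9 CPM at 29 °C (log2 fold change 1.44 with an SE of 0.24, adjusted p = 0.0182). Within each class the 29 °C libraries were higher, but libraries 7 and 8 lay within the range of libraries 10 to 12. Cdt1 (1.38 (SE 0.28)), Mcm5 (0.96 (SE 0.18)), Mcm2 (0.90 (SE 0.21)) and Mcm6 (0.85 (SE 0.19)), which license and open replication origins, and Aurkb, a mitotic kinase (1.05 (SE 0.26)), were the others. Mcm6 alone of these separated the temperatures over all 8 libraries. Of the histone genes, which are made with DNA replication, Hist1h3f stood at 1.29, 0.917, 8.05 and 8.21 CPM at 22 °C and 14.5, 8.53, 7.9 and 5.96 CPM at 29 °C (log2 fold change 1.73 with an SE of 0.36, adjusted p = 0.0292), with Hist1h2bb at 1.89 (SE 0.43), Hist1h3b at 1.77 (SE 0.45) and the variant H2afx at 1.65 (SE 0.41). Histone genes of a cluster are near-identical and their reads may be shared.

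Markers of granulocyte precursors, dividing cells of the neutrophil line, overlapped between temperatures, with libraries 10 to 12 below libraries 7 and 8. Their 12 genes summed to 538, 314, 2930 and 1950 CPM at 22 °C and 4220, 1020, 1150 and 859 CPM at 29 °C, and all 12 had a positive fold change (median 1.17). Of these edgeR called 0, with 6 at an unadjusted p under 0.05, 4 by DESeq2 and 3 by limma voom. The 17 mature neutrophil genes summed to 334, 339, 994 and 700 CPM at 22 °C and 1500, 676, 649 and 625 CPM at 29 °C, with counts of 0, 4, 3 and 2 in that order over 16 tested members. Library 9 was highest in both sums and libraries 5 and 6 were lowest. The part of these cells in the rise of the proliferation, histone and actin genes was not tested.

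Actin cytoskeleton genes rose in 6 of 39 members with none lower (median 0.37, with 0.43 and 0.39 in the libraries without and with H2-Ea-ps). Zyx, zyxin of focal adhesions, stood at 49.3, 50.5, 75.1 and 70.9 CPM at 22 °C and 122, 100, 71.3 and 92 CPM at 29 °C (log2 fold change 0.75 with an SE of 0.16, adjusted p = 0.0292). Flna, which crosslinks actin (0.87 (SE 0.17)), Vasp (0.96 (SE 0.18)), Capg (1.14 (SE 0.28)), Vcl (0.48 (SE 0.12)) and the tubulin Tubb6 (0.99 (SE 0.23)) were the others. Tubb6 separated the temperatures, at 5.63, 7.23, 9.9 and 9.03 CPM at 22 °C and 14.1, 16.5, 13.2 and 19.2 CPM at 29 °C. Rflnb, a filamin-binding protein, rose by 1.70 (SE 0.31) and Sh3bp1, a regulator of Rac signalling, by 1.70 (SE 0.38), but in both libraries 7 and 8 overlapped the 29 °C libraries, and Rflnb followed the neutrophil sums in being highest in library 9. Of 32 genes of ribosome biogenesis 2 rose, Npm1 (0.74 (SE 0.18)) and Rrp12 (0.67 (SE 0.17)).

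Other changes with known roles. Tnfrsf12a, the receptor of the cytokine TWEAK, headed the 12 largest rises that the naming rule gave, at 1.48, 1.02, 4.98 and 5.38 CPM at 22 °C and 11.6, 24.6, 13.3 and 21 CPM at 29 °C (log2 fold change 2.73 with an SE of 0.51, adjusted p = 0.0271). All 29 °C libraries were above all 22 °C libraries, with 3.96 among the libraries without H2-Ea-ps and 1.16 among those with it. It and Ltbr (0.79 (SE 0.17)) were the calls among 24 genes of the TNF receptor family and NF-kB. Slc41a3, of the magnesium transporter family SLC41, stood at 1.85, 1.43, 6.13 and 4.26 CPM at 22 °C and 15.7, 13.5, 5.89 and 17.6 CPM at 29 °C (log2 fold change 2.42 with an SE of 0.43, adjusted p = 0.0217), with library 11 inside the 22 °C range. Klf4, a zinc finger factor, was the one call among 23 immediate early genes (2.68, 4.48, 4.98 and 3.81 CPM at 22 °C and 8.1, 10.3, 15.9 and 7.66 CPM at 29 °C, log2 fold change 1.35 with an SE of 0.32, adjusted p = 0.0379), and it was separate. The median of that list was 1.27 among libraries without H2-Ea-ps and 0.09 among those with it. Cebpa, a master regulator of hepatocyte identity, stood at 108, 99.2, 168 and 218 CPM at 22 °C and 237, 280, 244 and 335 CPM at 29 °C (log2 fold change 1.02 with an SE of 0.24, adjusted p = 0.0403) and was likewise separate. Its fold change was 1.47 among the libraries without H2-Ea-ps and 0.30 among those with it.

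Falls outside the groups above included Ptgds, prostaglandin D synthase, at 3.78, 6.11, 0.958 and 3.51 CPM at 22 °C and 0.386, 0.284, 0.604 and 1.9 CPM at 29 °C (log2 fold change -2.45 with an SE of 0.52, adjusted p = 0.0298), where library 12 overlapped library 7. Morn2 was also low in level, at 2.77, 4.38, 1.98 and 3.58 CPM at 22 °C and 1, 1.02, 1.51 and 1.36 CPM at 29 °C (log2 fold change -1.53 with an SE of 0.35, adjusted p = 0.036), and did not overlap. Rnd1, a small GTPase, stood at 16.1, 21.1, 12.5 and 18.8 CPM at 22 °C and 8.33, 6.14, 6.64 and 8.74 CPM at 29 °C (log2 fold change -1.28 with an SE of 0.30, adjusted p = 0.0388), without overlap. Akap17b (-1.34 (SE 0.27)) separated the temperatures as well. Cxcl9, an interferon-induced chemokine, had a fold change of -1.28 (SE 0.33) with overlap and was the one call among 15 liver chemokines.

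Growth hormone and insulin signalling fell in 2 of 22 genes, Ghr, the growth hormone receptor (-0.66 (SE 0.17)), and Sesn3, a sestrin (85.9, 92.4, 53.8 and 66.7 CPM at 22 °C and 44.8, 39.9, 44.1 and 42 CPM at 29 °C, log2 fold change -0.86 with an SE of 0.14, adjusted p = 0.0182). Sesn3 was lower in all 4 libraries at 29 °C. Mup3, a major urinary protein, was the one call among 10 sex-biased liver genes (-1.43 (SE 0.35)) and stood at 1220, 1000, 83.7 and 175 CPM at 22 °C and 107, 196, 292 and 284 CPM at 29 °C. Libraries 5 and 6 alone were high. Clock, of the circadian clock, fell (132, 121, 98.4 and 82.7 CPM at 22 °C and 65.4, 71.9, 81.8 and 71.7 CPM at 29 °C, log2 fold change -0.69 with an SE of 0.15, adjusted p = 0.0293), the one call among 21 clock genes. Among the 26 NRF2 antioxidant genes 1 rose, Pgd, and 3 fell, Cat (-0.62 (SE 0.14)), Gclc (-0.72 (SE 0.17)) and Gpx1 (-0.60 (SE 0.16)).

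Lists of plasma proteins gave single calls, a share near the 3.44% called over all genes: Crp of 27 acute phase genes (-0.79 (SE 0.14)), F13b of 33 coagulation and complement genes (-0.61 (SE 0.15)) and Apoa2 of 24 lipoprotein genes (-0.70 (SE 0.16)). In immune lists, Irf7 rose (0.67 (SE 0.18)), the one call of 42 interferon-stimulated genes, and B2m fell (-0.999 (SE 0.25)), the one call of 20 MHC genes. Irf7 stood at 48.7, 63.4, 23.6 and 23.6 CPM at 22 °C and 26.1, 101, 97.1 and 103 CPM at 29 °C, lower in libraries with H2-Ea-ps at either temperature. B2m stood at 2100, 2590, 662 and 620 CPM at 22 °C and 568, 849, 803 and 848 CPM at 29 °C. It was high in libraries 5 and 6 alone, and without them its fold change was -0.20 in the fit with the term. For both genes library 9 was near libraries 7 and 8.

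Stress lists held no edgeR call. Of 27 genes of the integrated stress response edgeR called 0 (median 0.31), with 4 at an unadjusted p under 0.05, 2 by DESeq2 and 1 by limma voom. For 24 endoplasmic reticulum chaperones (median -0.33) these counts were 0, 5, 2 and 5, and for 22 heat shock proteins (median -0.33) they were 0, 6, 4 and 6. For 31 proteasome genes they were 0, 5, 2 and 3. Of 18 cold-inducible or temperature-sensitive RNA-binding genes 1 fell, Clk1, a kinase of splicing factors (109, 109, 87.2 and 104 CPM at 22 °C and 81.3, 55.8, 64.5 and 72.1 CPM at 29 °C, log2 fold change -0.57 with an SE of 0.14, adjusted p = 0.0403). The cold-inducible RNA-binding genes were not called: Cirbp stood at 4.61, 4.58, 6.9 and 13.1 CPM at 22 °C and 9.95, 10.7, 5.79 and 12 CPM at 29 °C (log2 fold change 0.61 with an SE of 0.29, adjusted p = 0.213) and Rbm3 at 8.31, 9.98, 11.4 and 20 CPM at 22 °C and 27.2, 10.7, 8.5 and 18.9 CPM at 29 °C (log2 fold change 0.60 with an SE of 0.25, adjusted p = 0.16).

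**Figure D4:**
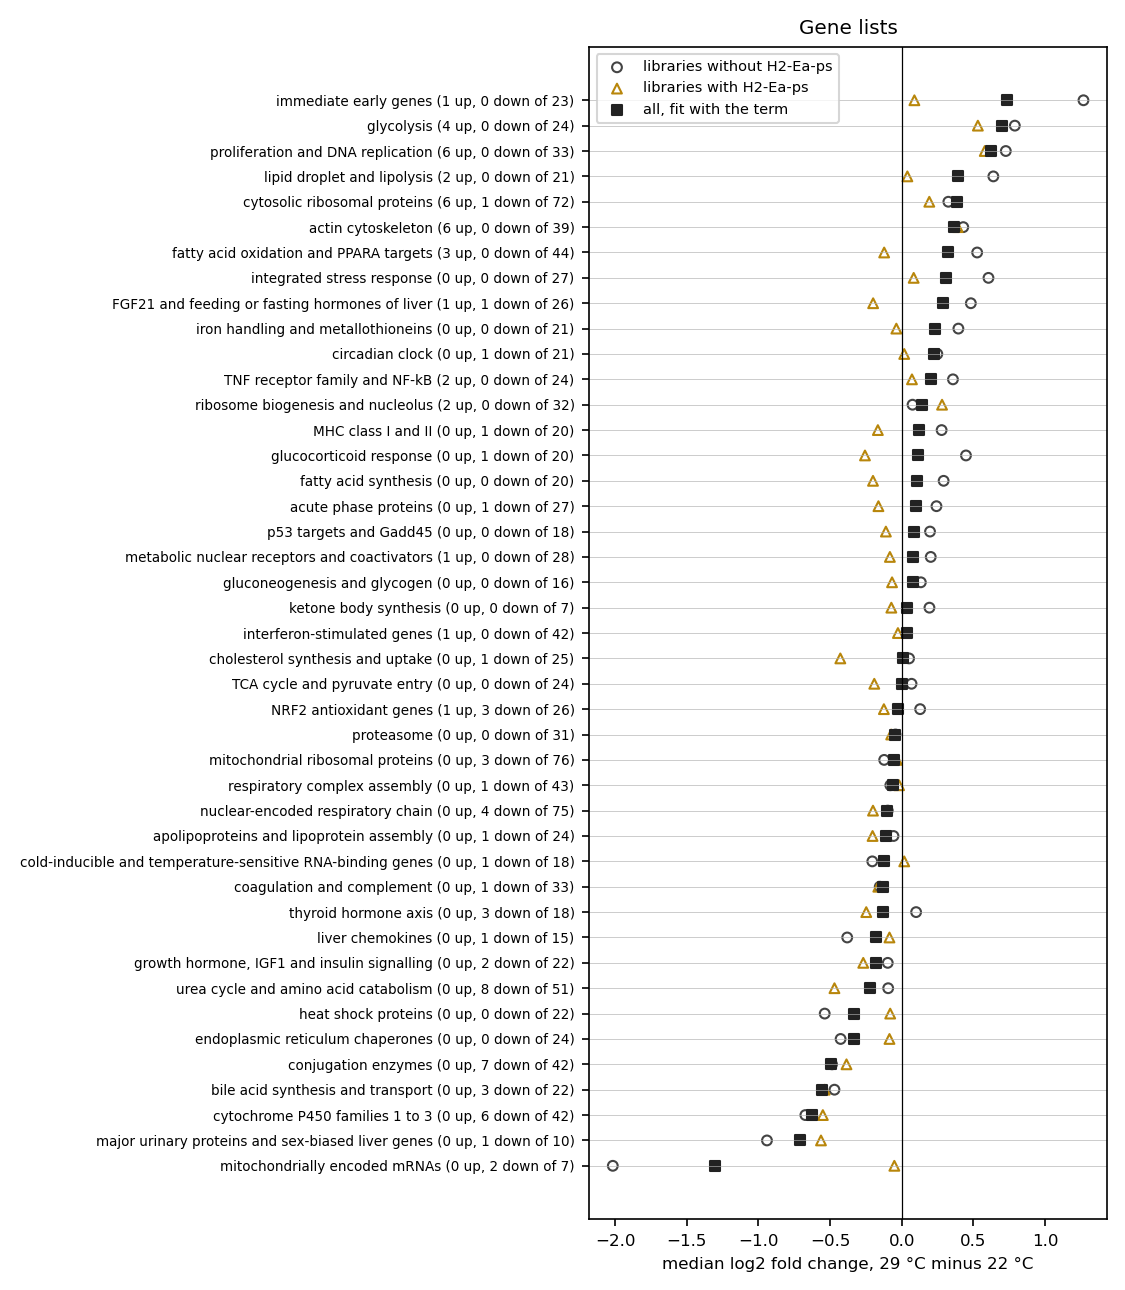
Median log2 fold change at 29 °C against 22 °C of the measured members of each pathway list (x axis) in the fit with the term and within the libraries without and with H2-Ea-ps. P450, conjugation, bile acid, glycolysis, proliferation and actin lists have medians of the same sign in both classes, while the median of mitochondrially encoded mRNAs is -2.02 in one and -0.05 in the other.

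Markers of further cell types gave few calls. Of 17 Kupffer cell genes 2 rose, Fcna (23.1, 27.8, 28.9 and 29.1 CPM at 22 °C and 39.6, 92.1, 58.4 and 68.8 CPM at 29 °C, log2 fold change 1.22 with an SE of 0.28, adjusted p = 0.0403) and the complement component C1qc (0.90 (SE 0.22)), and the list summed to 826 to 1510 CPM at 22 °C and 1140 to 1870 CPM at 29 °C. Hemoglobin genes Hba-a1 (13.3, 15.4, 12.9 and 10.2 CPM at 22 °C and 17.1, 68.4, 23.3 and 47 CPM at 29 °C, log2 fold change 1.36 with an SE of 0.33, adjusted p = 0.0439) and Hba-a2 (1.88 (SE 0.45)) rose among 11 tested erythroid genes. Hba-a1 and Hba-a2 are near-identical copies. With untested members included, 14 erythroid genes summed to 93.1 to 137 CPM at 22 °C and 151 to 476 CPM at 29 °C. Platelet genes summed to 54.5 to 68.7 CPM at 22 °C and 84.4 to 135 CPM at 29 °C, and of 7 tested edgeR called 0 (4 at an unadjusted p under 0.05, 3 by DESeq2 and 4 by limma voom). Of 8 T cell, 10 B and plasma cell and 3 NK cell genes tested, 0 were called by edgeR, DESeq2 or limma voom, with 0 at an unadjusted p under 0.05. Intestinal markers summed to 215 to 411 CPM and 428 to 1320 CPM, highest in library 11, with Fabp6 and Defa24 at 0 in all 8. Pancreatic markers reached 22.5 CPM in library 11 with Prss1 at 0. Of the mammary markers Krt5, Csn2, Csn3, Wap, Lalba and Elf5 were at 0, and Prlr, which hepatocytes also express, fell (-0.86 (SE 0.22)). Ucp1, of brown fat, was at 0. Of the 13 mitochondrially encoded mRNAs, which liver cells express, 5 (mt-Nd3, mt-Nd4l, mt-Co2, mt-Co3 and mt-Atp8) were also listed at 0 in all 8 libraries, so a 0 in this table does not by itself show that a gene was not expressed.

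Within the libraries without H2-Ea-ps, 2743 genes were called (18.3% of those tested), 1544 higher (10.3%) and 1199 lower (7.99%), all on libraries 5 and 6 against 10 to 12. Within libraries 7, 8 and 9 edgeR called 0 (0%), with 706 genes at an unadjusted p under 0.05, and no other tool was run on that contrast. Libraries 7 to 9 do not enter the fold changes of the former contrast but share its filter, scaling and estimate of spread. Among them 1890 of the 2743 genes (68.9%) had the same sign, against 58.7% of all genes tested. The median was 0.98 among the 1544 higher genes and 0.14 for these genes in libraries with H2-Ea-ps, and -0.76 and -0.16 for the 1199 lower genes. The genes were chosen by their values in the first class, which alone makes those values larger, so the sizes are not compared.

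**Figure D5:**
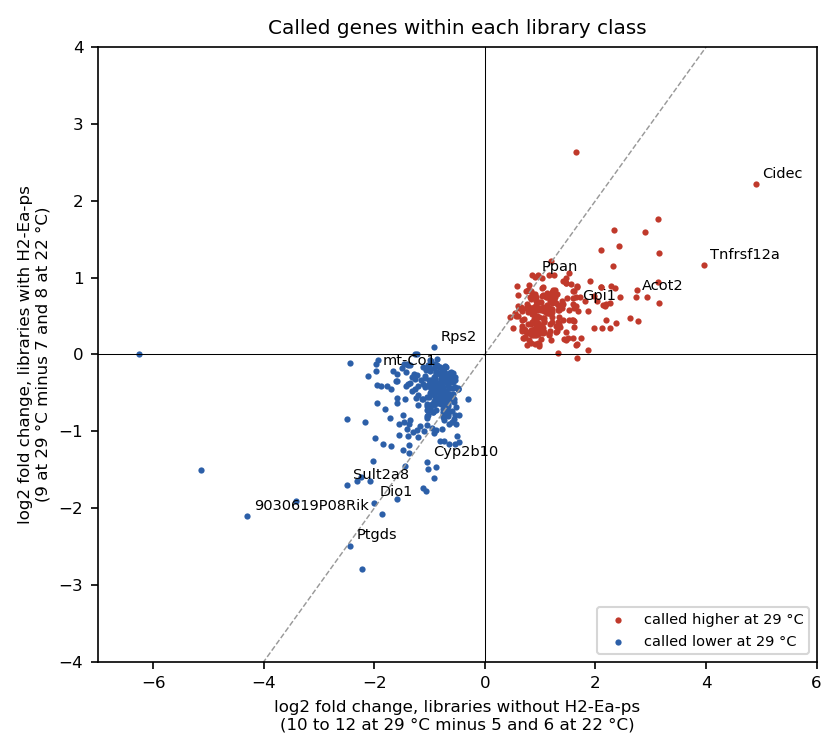
Log2 fold change at 29 °C against 22 °C among libraries without H2-Ea-ps (x axis) against the same among libraries with it (y axis), for the 516 called genes, with the line of equal values dashed. Dio1 lies near that line at -2.01 and -1.93, while mt-Co1 lies at -1.97 on the x axis and -0.22 on the y axis.

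The difference of the temperature effect between the classes was itself called for 5 genes (0.0333%), with 1888 at an unadjusted p under 0.05. The class with H2-Ea-ps has library 9 alone at 29 °C, which is assumed to vary like the other groups. Slc25a30, a mitochondrial carrier, stood at 23.8, 21.9, 49.9 and 52.5 CPM at 22 °C and 21.5, 47.3, 41.2 and 43.3 CPM at 29 °C. The 29 °C libraries were higher without H2-Ea-ps and lower with it (0.94 and -1.25, adjusted p of the difference = 0.00627). Maff, a small MAF stress factor, went the same way, at 5.44, 4.99, 13.3 and 11 CPM at 22 °C and 5.02, 24.4, 22.3 and 17.7 CPM at 29 °C (2.04 and -1.27, adjusted p of the difference = 0.0113). Tm7sf2 of cholesterol synthesis (0.96 and -0.67) and Cdc42ep4 (1.45 and -0.19) did too, and Clec2d, a lectin bound by receptors of NK cells, had -1.93 and -0.07, each with an adjusted p of the difference of 0.0362. Leaving out library 6 left 0 of these calls, and leaving out library 3, from 6 °C, gave 133.

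Set beside the levels at 6 °C, the genes described above, Fgf21 among them although not called, did not follow a single pattern. Dio1 averaged 108 ± 30.8 CPM at 6 °C (SD, n = 4), and its means of 34.6 ± 14 CPM at 22 °C and 9.76 ± 4.17 CPM at 29 °C (SD, n = 4) continued downward. Fgf21 was lowest at 6 °C (1.44, 0, 0.794 and 0 CPM). Gpi1 stood at 101, 114, 131 and 124 CPM at 6 °C, in or just below its 22 °C range, as did Acot2 at 3.74, 1.6, 2.94 and 2.93 CPM. Aacs, at 90.1, 96.6, 88.8 and 65.3 CPM, was above all its 22 °C libraries at 6 °C as well as at 29 °C. Cyp2b10 stood at 31.2, 97.7, 106 and 109 CPM, with library 1, which holds H2-Ea-ps, near libraries 7 and 8. These levels are a description, with no test.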

How the data were processed

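Raw counts per gene were deposited by the authors as 1 table of 55421 genes with 12 columns of whole numbers, not normalized, per the file headers, and each column was matched to a sample by the library name in its label. Tools named in the submitters' processing notes, without a role, are STAR 2.6.1a, DESeq2 1.44.0 and bcl2fastq, and the build is GRCm38. How reads were assigned to genes, and whether by strand, is not given in the sources used here. Positions came from GENCODE vM21 by identical identifier (54673 matched).

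The deposited counts entered edgeR 4.0.16 (R 4.3.3) unchanged (filterByExpr by group, TMM, robust quasi-likelihood fit, two-sided tests, Benjamini-Hochberg). All 12 libraries entered, with 3 temperature means and the term, leaving 8 residual degrees of freedom and a common biological coefficient of variation of 0.223. The term marks libraries in which H2-Ea-ps reached 1 CPM. It comes from the data, not the labels, and is no group of the study. Values within classes came from a fit with 1 mean per temperature and class. Sums of list members are CPM on total counts, without TMM scaling, so they are not on the scale of the single genes. For H2-Ea-ps, libraries 7, 8 and 9 stood at 16.8, 15.5 and 11.8 CPM on total counts. With TMM they stood at 15.8, 14.3 and 10.3 CPM. The scripts were tested on simulated counts.

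The comparison, its term and all 63 lists were chosen with earlier results of these data known. No set test was run: a list is described by its calls and its median. Genes were named by rule: the 12 largest rises and falls among called protein-coding genes with a regular symbol, a mean log2 CPM of at least 1 and no overlap within either class, the 6 rises and 6 falls with the lowest of their highest adjusted p over fits without 1 library, up to 3 called members per list, and Fgf21, Dio1, Cirbp, Rbm3 and H2-Ea-ps. Other members appear where a list's count is described. One called member of the amino acid list is not reported here by name.

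Total counts lay between 7615585 and 19001126 over the 12 libraries. No library was a repeat of another of its temperature: chi-square over degrees of freedom was 13.2 to 145 for these pairs. Pairs across temperatures were not compared in this way. Alternatives were other size factors, other filters, DESeq2 1.42.0, limma voom with library quality weights and robust moderation (limma 3.58.1), fewer libraries, a minimum fold change and second covariates. Fits without libraries 5 and 6, and DESeq2 and limma voom without the term, were added after seeing the data.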

Additional observations from a re-analysis of the deposited data

Results flagged for a closer look

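At each temperature the 4 libraries were screened for 1 lying apart from the rest (its gap to the nearest other library above Dixon's 95% critical share of the range). This covered 198 groups of 4 for 99 named genes and 40 for 20 marker sums. Chance gives about 1 such value in 20 groups, and 11 were found, so their number is no result.

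Library 9, the 29 °C library with H2-Ea-ps, was the one apart in 7 of the 11. It stood above the others for H2afx (27.2 CPM, next 16.3), H2-Ea-ps (10.3, the others at 0), the mature neutrophil sum (1500, next 676) and the granulocyte precursor sum (4220, next 1150). It stood below them for Abcb11 (375 CPM, next 598), Irf7 (26.1, next 97.1) and B2m (568, next 803). Library 12 was apart for Sult2a8, at 41.2 CPM with the next at 13.8. Library 10 was apart for the platelet sum (135 CPM, next 90.1) and for Gm13775 (0.0569 CPM, the others at 0), which is a single count. At 22 °C library 8 was apart for the adipocyte sum, at 32.5 CPM with the next at 28.1.

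The temperature effect differed between libraries with and without H2-Ea-ps, by a test of the difference itself (edgeR, adjusted p under 0.05), for 5 genes. The class with the gene has library 9 alone at 29 °C, so the spread comes from the other groups and library 9 is assumed to vary like them. The difference in log2 fold change, with minus without, was -2.20 for Slc25a30, -3.31 for Maff, -1.64 for Cdc42ep4, -1.63 for Tm7sf2 and 1.86 for Clec2d.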

How the results depend on the processing

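No paired analysis was possible because the library numbers in the titles, 1 to 12, are not shared between temperatures. Against 516 calls with the term, edgeR called 0 without it, 2052 with no low-count filter, 1450 in the 8 libraries compared, 2594 in the libraries without H2-Ea-ps, 19 with Gm26917 and 2 with mitochondrial mRNA as a second covariate, and 159 at a minimum absolute log2 fold change of 1. DESeq2 called 1612 with the term and 325 without, and limma voom 2292 and 43. Leaving out 1 library gave 0 (library 6) to 1054 (library 1) calls. Leaving out libraries 5 and 6 together gave 1 call with the term and 0 without. Other size factors, the trimmed scaling and the stricter filter gave 540 to 587. Among libraries without H2-Ea-ps, leaving out 1 library moved the 2743 calls to between 481 and 3164. The 5 calls for a class difference became 367 with no low-count filter and 0 to 133 without 1 library.

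Without libraries 5 and 6 and without the term, libraries 7 and 8, which hold H2-Ea-ps, are compared with 9 to 12, so class and temperature cannot be told apart. The log2 fold change then changed sign for Rflnb (-0.025), H2afx (-0.121), Mcm5 (-0.107), Npm1 (-0.076) and Cirbp (-0.057), and for Sult2a2 (0.176), Cyp2b10 (0.199), Gm13775 (1.439), Sc5d (0.091), Akr1d1 (0.024), Cyp27a1 (0.368), Ndufa6 (0.335), Mrpl34 (0.054), Rps2 (4.874), Slc16a10 (0.021), Thrb (0.056), Gstm6 (0.072), Mup3 (0.765) and B2m (0.258). Rps2 also changed sign in limma voom without the term (1.589), where the cause was not tested. H2-Ea-ps ran from -0.596 to 0.072 without 1 library, the latter without library 9, the only 29 °C library that holds it. In the other fits run the 99 named genes kept their sign wherever they had a value. Depth limits Gm13775, Ugt2b37 and Cidec, which stood near the level of 3 counts in several libraries.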
